A study of Mus musculus with 15 samples.

Results

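The comparison described here sets tibialis anterior (TA) muscles labelled Dox + sACVR2B against TA muscles labelled Dox, among arrays with a high signal of Cdkn1a, the gene of the cell cycle inhibitor p21. The arrays were chosen by their brightest Cdkn1a probe, which had to reach a linear signal of 1000. This kept 3 of the 5 Dox + sACVR2B arrays and 4 of the 5 Dox arrays, so 7 of the 10 arrays with these labels and of the 15 arrays in the series. Because Cdkn1a selected the arrays, its values are given as a description and were not tested.

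RNA of the TA, a fast hindlimb muscle of the shin, was profiled with bead arrays from Illumina, and each mouse gave 1 array. All mice were male C57BL/6 (C57BL/6J in the methods of the study), 8 to 10 weeks old by the labels. Mice of both compared labels are stated to have received 1 intraperitoneal dose of doxorubicin, 15 mg/kg, and their muscles were collected 20 h later. The Dox + sACVR2B mice had in addition received 10 mg/kg of sACVR2B-Fc 48 h before doxorubicin, whereas Ctrl mice received PBS. The fusion protein holds the ligand-binding part of the human activin receptor type IIB joined to the Fc part of human IgG1, and acts in the whole animal, not in muscle alone.

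Doxorubicin, a chemotherapy drug, damages DNA and thereby activates p53, of which Cdkn1a is a classical target. Myostatin and activins are secreted factors that bind activin type II receptors on muscle fibres, activate Smad2 and Smad3 and restrain muscle size. Soluble ACVR2B captures these ligands before they reach the receptor, and it increases muscle mass in mice.

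The labels of these arrays are in doubt. Cdkn1a signals were 4560.3, 4046.7 and 3622.6 on Dox + sACVR2B arrays 1 to 3, and 2359.0, 4013.2, 3315.7 and 2694.3 on Dox arrays 1, 3, 4 and 5. The remaining arrays of these labels lay far lower, at 209.1 and 358.8 for Dox + sACVR2B 4 and 5 and 131.6 for Dox 2. The lowest chosen array was therefore Dox 1 and the highest array left out was Dox + sACVR2B 5, with nothing between 358.8 and 2359.0. Ctrl arrays 1, 4 and 5, from mice labelled as given no doxorubicin, had 4300.7, 4056.8 and 4634.2, and Ctrl arrays 2 and 3 had 294.5 and 187.3. High and low Cdkn1a thus occurred under all 3 labels. The statements below hold for arrays as labelled, and whether a label gives the mouse's true treatment was not tested.

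**Figure D1:**
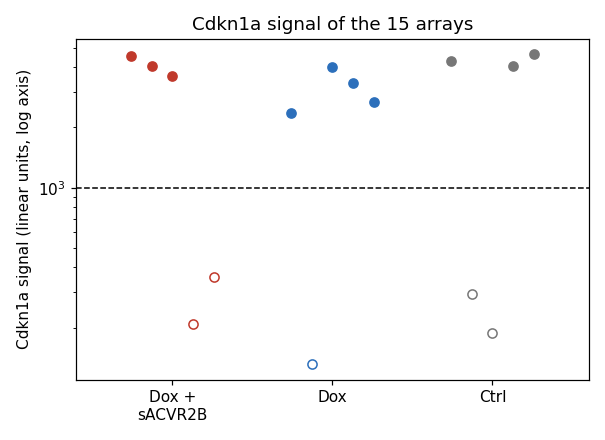
Cdkn1a signal (vertical axis, linear units on a log scale) of each of the 15 arrays under its label. The dashed line is the threshold of 1000. Filled points reach it and open points do not. The 10 filled points lie at 2359.0 or more and the 5 open points at 358.8 or less.

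The chosen arrays were muscle by their RNA. All 12 markers of skeletal muscle fibres were measured, and their summed signal was 225500 to 243600 on Dox + sACVR2B arrays and 239200 to 250600 on Dox arrays. Myh4, the fast IIb myosin, was among the brightest, at 16587.2 to 18350.5 on Dox + sACVR2B arrays and 17902.3 to 22679.9 on Dox arrays. Pearson correlations between arrays, over 21307 probes on the log2 scale, were 0.989 to 0.9937 within Dox + sACVR2B, 0.9846 to 0.9906 within Dox and 0.9845 to 0.9924 between the labels. The first principal component held 30.7% of the variance and set Dox 4 (score 21.7) and Dox 5 (21.3) apart. Dox 3 (-15.4) lay near Dox + sACVR2B 1 (-13.9) and 2 (-17). Labels did not separate on it.

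No gene passed the test. Of 21307 probes above noise, 0 were called by limma (adjusted p under 0.05, Benjamini-Hochberg), and the smallest adjusted p was 0.881. At an unadjusted p under 0.05, with no correction, there were 1168 probes (5.48%). None of the 149 probes with a fold of at least 1.5 (65 higher and 84 lower) was called. Per gene, with the brightest probe standing for each of 11458 genes, 0 were called (0%). Unadjusted p was under 0.05 for 346 genes that were higher in Dox + sACVR2B (3.02%) and 321 that were lower (2.8%). The 3 Dox + sACVR2B arrays lay wholly above the 4 Dox arrays for 386 genes (3.37%) and wholly below them for 307 (2.68%). These percentages are the background against which each group of genes below is read.

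The precision was moderate. The median standard error of a log2 difference was 0.12, which is a 95% interval of 1.21-fold either way around the estimate. Over all genes the median log2 difference was 0.01, with 5938 genes above 0 and 5518 below. The range was -1.28 to 1.40. Differences are Dox + sACVR2B minus Dox on the log2(signal + 50) scale throughout, which makes the differences of dim genes smaller. Every adjusted p of a gene named below is 0.881 or more. A difference described as higher or lower is thus one of means that did not pass correction.

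**Figure D2:**
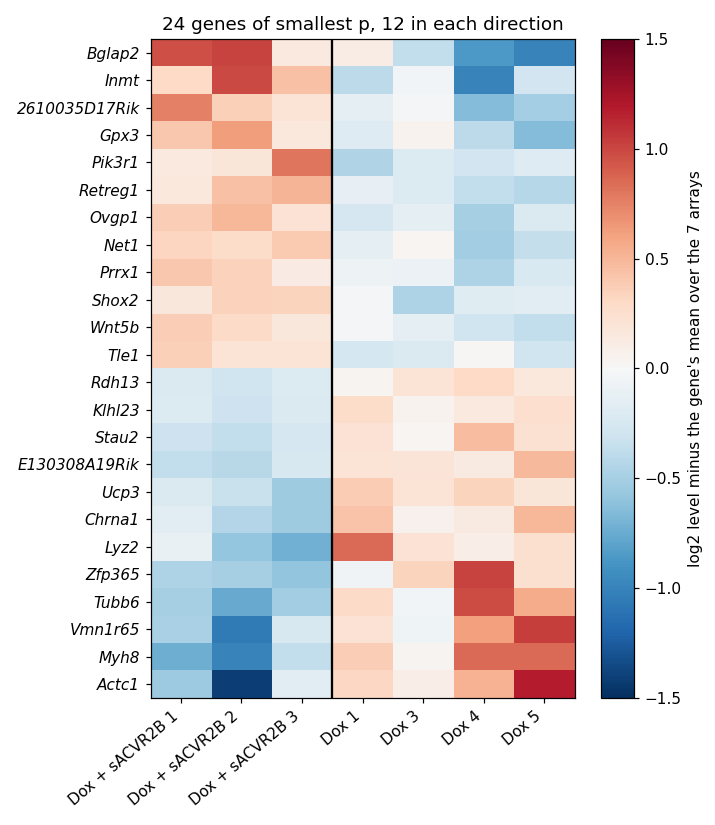
Log2 level of 24 genes on each of the 7 chosen arrays (columns; Dox + sACVR2B left of the black line, Dox right), as the deviation from the gene's mean over the 7 arrays (colour). Rows are the 12 genes of smallest unadjusted p in each direction, so the contrast across the line follows from how they were chosen.

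The genes of smallest p on the lower side included 3 that muscle fibres make more of before birth or after loss of the nerve. Myh8 is the perinatal myosin heavy chain, and Actc1 is cardiac alpha-actin, which embryonic skeletal muscle also makes. Chrna1 is the alpha subunit of the acetylcholine receptor, in fetal and adult muscle alike. Their promoters are printed because these genes were low together. Each holds 250 bases before and 50 after the RefSeq start of the gene (GRCm38.p6), 5′ to 3′ on the gene's strand. Capitals mark E-boxes (CANNTG, the sequence bound by MyoD-type factors) and the CArG box (bound by serum response factor). Both motifs were searched on both strands.
Myh8 (chr11:67276874-67277173, + strand): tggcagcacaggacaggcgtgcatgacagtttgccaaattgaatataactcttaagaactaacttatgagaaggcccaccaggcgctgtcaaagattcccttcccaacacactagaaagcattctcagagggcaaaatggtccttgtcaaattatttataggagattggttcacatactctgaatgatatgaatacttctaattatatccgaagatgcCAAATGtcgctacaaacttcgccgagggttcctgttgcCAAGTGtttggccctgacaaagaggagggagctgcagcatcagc
Actc1 (chr2:114052826-114053125, - strand): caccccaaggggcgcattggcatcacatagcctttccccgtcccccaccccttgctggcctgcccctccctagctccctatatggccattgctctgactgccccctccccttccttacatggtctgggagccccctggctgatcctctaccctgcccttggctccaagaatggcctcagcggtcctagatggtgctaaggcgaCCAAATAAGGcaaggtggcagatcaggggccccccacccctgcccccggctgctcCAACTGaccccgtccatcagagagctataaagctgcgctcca
Chrna1 (chr2:73580289-73580588, - strand): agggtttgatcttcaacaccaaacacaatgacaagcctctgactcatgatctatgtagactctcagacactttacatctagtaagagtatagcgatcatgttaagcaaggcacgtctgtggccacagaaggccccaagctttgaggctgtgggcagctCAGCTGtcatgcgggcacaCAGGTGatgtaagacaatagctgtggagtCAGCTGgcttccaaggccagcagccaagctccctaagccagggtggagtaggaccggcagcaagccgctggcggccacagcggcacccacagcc
The windows of Myh8, Actc1 and Chrna1 held 2, 1 and 3 E-boxes. An E-box occurs in 72.3% of all 32851 promoter windows of this length, so its presence is usual. Actc1 alone of the 3 held a CArG box, which occurs in 1.63% of windows.

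Myh8 signals were 118.5, 89.1 and 166.7 on the Dox + sACVR2B arrays, against 309.4, 236.4, 454.4 and 452.6 on the Dox arrays. All Dox + sACVR2B values were below all Dox values, and the log2 difference was -1.23 (SE 0.21, fold 0.428 with a 95% interval of 0.310 to 0.590). It had the smallest p of all probes, 0.000117 before adjustment. Both other kept probes of Myh8 were dimmer and had differences of -0.49 and -0.61.

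Actc1 had 6526.4, 3575.4 and 8588.8 on the Dox + sACVR2B arrays, against 11890.1, 10262.6, 13756.4 and 21643.7 on the Dox arrays. The sets did not overlap, the difference was -1.23 (SE 0.29), and a second probe gave -1.73. Leaving out 1 array at a time moved it between -1.5 and -0.88. For Chrna1 the Dox + sACVR2B arrays had 369.4, 297.7 and 274.4 and the Dox arrays 581.8, 442.1, 468.3 and 616.6, a difference of -0.66 (SE 0.14). Tubb6, a beta-tubulin, showed the same order, with 949.1, 789.3 and 932.5 in Dox + sACVR2B against 1676.9, 1323.9, 2742.2 and 2033.8 in Dox (-1.04, SE 0.20).

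The wider group of myogenic, denervation and embryonic genes did not share this. Of 22 measured members, 9 were above 0 and 13 below, and the median was -0.04. There were 3 members with an unadjusted p under 0.05 on each side, against 3.02% of all genes higher and 2.8% lower. Wholly below lay 4 and wholly above 1, against 2.68% and 3.37% of all genes. Chrng, the fetal receptor subunit, was near noise and overlapped (-0.45, SE 0.22). Myog, a factor of muscle differentiation, had a difference of -0.20 (SE 0.15). On the upper side were Myod1, a master factor of muscle (0.62, SE 0.25), and Ncam1, an adhesion molecule that denervated fibres display (0.51, SE 0.19), both with overlapping arrays.

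Arrays under the Cdkn1a threshold gave the embryonic genes another order. Myh8 was 252.7 and 673.0 on Dox + sACVR2B 4 and 5 and 83.3 on Dox 2, and Actc1 was 24081.5 and 17623.0 against 11155.8. Both were thus higher in Dox + sACVR2B there, and 18 of the 22 members of the group were above 0 (median 0.33), without replication of the single Dox array. Among the chosen arrays Myh8 therefore ran opposite to the arrays that were left out. The Ctrl arrays over the threshold had 155.0, 175.5 and 104.2 for Myh8, all below the chosen Dox arrays, and 6454.2, 6633.7 and 11355.3 for Actc1.

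**Figure D3:**
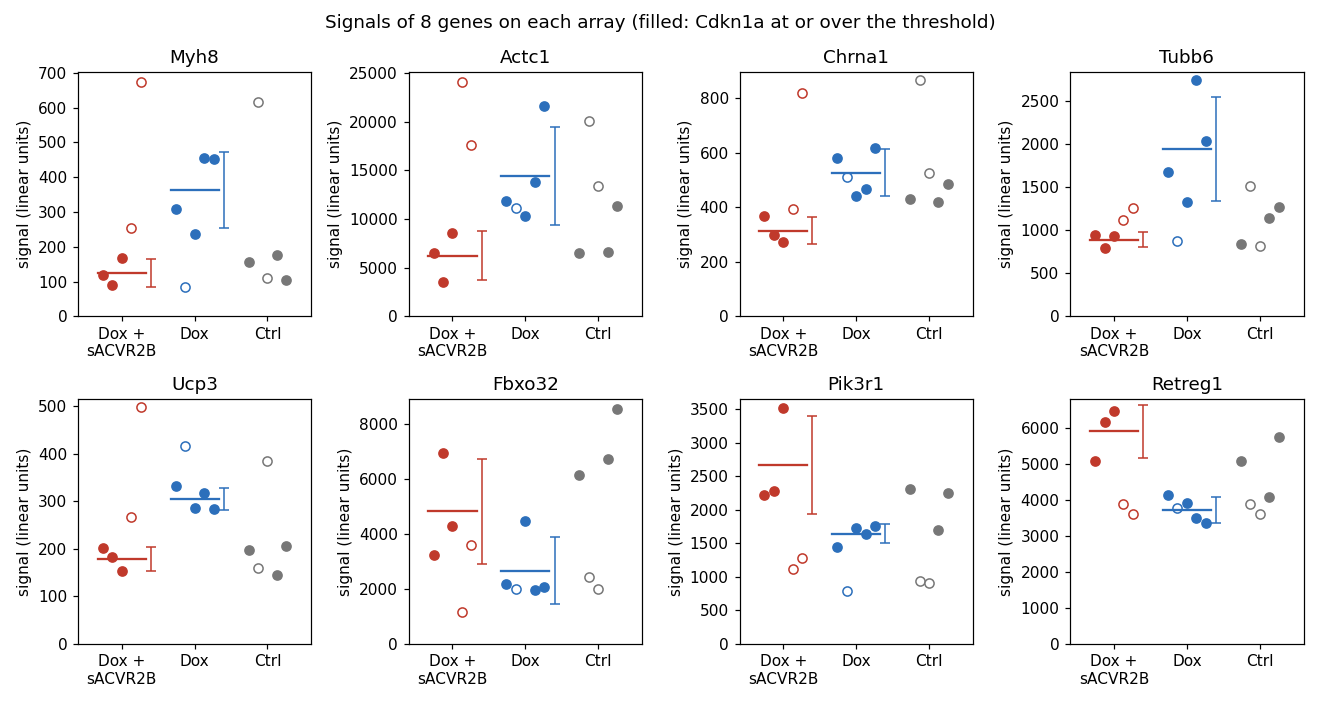
Signals (linear units) of 8 genes on every array, by label. Filled points are arrays with Cdkn1a at or over the threshold and open points those under it. Horizontal lines and bars are the mean and SD of the filled points (3 Dox + sACVR2B, 4 Dox). Filled points of the 2 labels do not overlap for 7 of the genes and overlap for Fbxo32. For Myh8 and Actc1 open Dox + sACVR2B points lie above the open Dox point.

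Genes of the targeted pathway itself differed little. Of 29 listed ligands, receptors and inhibitors, 27 were on the array and 18 above noise. There were 12 above 0 and 6 below, with a median of 0.09, and 0 had an unadjusted p under 0.05 or arrays that did not overlap. Over all genes 3.02% were higher and 2.8% lower at that p, and 3.37% and 2.68% did not overlap. Acvr2b, the receptor whose ectodomain was given, had signals of 1149.4, 1014.1 and 875.8 in Dox + sACVR2B against 938.6, 1006.4, 789.3 and 727.8 in Dox (0.22, SE 0.14). Inhba, which codes for the activin A subunit, lay at 41.4 to 45.4 against 34.9 to 42.5 (0.07, SE 0.10). Mstn, the myostatin gene, was on the array but not above noise. Of the secreted inhibitors, Fst (follistatin) had a difference of 0.26 (SE 0.14) at signals of 36.8 or less, and Ltbp4, a latent TGF-beta binding protein, one of 0.38 (SE 0.20). Smad3, the signal transducer, had -0.17 (SE 0.11).

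The related bone morphogenetic protein branch was similar, with 7 of 16 members above 0 and a median of -0.03. Id1, a direct target of that branch, had -0.26 (SE 0.16). Hdac4, a histone deacetylase that denervated muscle uses, lay wholly above (498.3, 501.7 and 538.6 in Dox + sACVR2B against 403.6, 414.7, 407.6 and 447.0 in Dox), a difference of 0.27 (SE 0.10).

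Genes of muscle protein breakdown had no common direction. Of 28 ubiquitin ligases and atrophy regulators, 16 were above 0 and 12 below, with a median of 0.05, and the 34 proteasome subunits had a median of 0.03. Among 40 measured atrogenes, which the study had taken from earlier models of muscle wasting, 18 were above 0 and 22 below (median -0.01). Fbxo32, the ligase atrogin-1, had the widest difference of the ligases. Its signals were 3230.5, 6955.8 and 4277.1 in Dox + sACVR2B, against 2156.7, 4484.3, 1943.4 and 2064.0 in Dox. The difference was 0.86 (SE 0.30, fold 1.82 with a 95% interval of 1.15 to 2.87), and 3 probes gave 0.84, 0.86 and 0.98. Dox 3 alone reached the Dox + sACVR2B range. Without Dox 3 the difference was 1.14, and without Dox + sACVR2B 2 it was 0.56.

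The Ctrl arrays over the threshold were higher still in Fbxo32, at 6150.4, 6727.8 and 8551.4. Asb2, a ligase subunit of muscle, had 11586.7, 11636.9 and 9004.6 in Dox + sACVR2B against 5241.9, 11636.9, 6233.2 and 5497.2 in Dox (0.65, SE 0.24). Here too Dox 3 stood with the Dox + sACVR2B arrays. Trim63, the ligase MuRF1, had 368.7, 606.6 and 560.5 against 359.8, 609.6, 442.8 and 279.9 (0.27, SE 0.22), and overlapped throughout. Foxo1, the transcription factor upstream of both ligases, had 375.7, 428.9 and 314.4 against 304.1, 491.4, 421.3 and 267.4, a difference of 0.03 (SE 0.18) with a 95% interval of 0.775 to 1.35 in fold.

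Ddit4, also called REDD1, an inhibitor of mTORC1, had signals of 525.4, 469.0 and 447.2 in Dox + sACVR2B against 359.5, 585.1, 410.4 and 213.2 in Dox. The difference was 0.33 (SE 0.23), and the Dox arrays spanned the whole Dox + sACVR2B range. It was 0.10 without Dox 5 and 0.53 without Dox 3. Mtor, the kinase itself, lay wholly above, at 569.8, 607.6 and 616.1 against 482.4, 550.8, 480.2 and 408.6 (0.29, SE 0.11). A second, dimmer probe of Mtor gave 0.08. In the group of mTORC1 genes Mtor was the only one of 30 with an unadjusted p under 0.05, and the median was 0.04. Over all genes 3.02% were higher and 2.8% lower at that p.

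Autophagy and lysosome genes leaned upward on the chosen arrays. Of 36 measured, 25 were above 0 (median 0.09) and 4 lay wholly above, against 3.37% of all genes. An unadjusted p under 0.05 was found for 5 on the higher side and 0 on the lower, against 3.02% and 2.8% of all genes. On the arrays under the threshold, where Dox was not replicated, 16 were above 0 and 20 below (median -0.03). Atg9a, a membrane carrier for autophagosomes, had 674.7, 636.0 and 664.1 in Dox + sACVR2B against 534.9, 559.0, 460.4 and 585.5 in Dox (0.28, SE 0.11). Tfeb, the lysosomal transcription factor, lay wholly above at low signals (28.6 to 38.2 against 13.9 to 25.6), as did Gabarap and Ctsd, with differences of 0.21 each. The study's autophagy genes overlapped between the labels. Ulk1, the initiating kinase, had a difference of 0.27 (SE 0.23), and Becn1, which nucleates the autophagosome, 0.09 (SE 0.11).

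Retreg1, a receptor that feeds the endoplasmic reticulum to autophagy, was outside that list and had one of the smallest p values on the higher side. It had 5075.8, 6171.4 and 6478.0 in Dox + sACVR2B, against 4136.9, 3921.5, 3505.6 and 3363.1 in Dox. The difference was 0.65 (SE 0.12), between 0.58 and 0.76 when 1 array was left out. On arrays under the threshold it was 3879.6 and 3601.8 against 3775.0, a difference of -0.01 with 1 Dox array.

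Insulin and IGF signalling had 3 members of 24 wholly above the Dox arrays and 0 wholly below, against 3.37% and 2.68% of all genes. Unadjusted p was under 0.05 for 4 members on the higher side and 1 on the lower, against 3.02% and 2.8% of all genes. Pik3r1, the regulatory subunit of PI3-kinase, had 2219.3, 2274.0 and 3516.6 in Dox + sACVR2B against 1448.5, 1734.2, 1635.9 and 1750.5 in Dox, a difference of 0.66 (SE 0.16). A second probe gave 0.59. Without Dox + sACVR2B 3, the highest array, it was 0.44. Igf1r, the IGF-1 receptor, had 222.7 to 243.7 against 150.1 to 209.1 (0.31, SE 0.12), and Inpp5k, a phosphatase of the lipids that PI3-kinase makes, had 2321.9 to 2411.9 against 1776.9 to 2145.9 (0.26, SE 0.10). Tbc1d1, which governs glucose transporter traffic, overlapped through Dox 3 (0.71, SE 0.24). In total 16 of the 24 were above 0, with a median of 0.11.

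Fuel genes moved little as groups, with a few single genes apart. The 27 genes of fasting and fatty acid oxidation had a median of 0.01, yet Ucp3, an uncoupling protein of muscle mitochondria, lay wholly below. It had 201.1, 181.8 and 152.3 in Dox + sACVR2B, against 330.9, 286.3, 317.9 and 282.7 in Dox (-0.64, SE 0.11), and its second probe gave -0.59. Angptl4, an inhibitor of lipoprotein lipase, had 88.0, 98.8 and 86.6 against 191.6, 118.0, 558.0 and 194.1. Its difference of -0.98 (SE 0.33) was -0.61 without Dox 4. The pyruvate dehydrogenase kinases split, with Pdk4 at -0.41 (SE 0.18) and Pdk2 at 0.45 (SE 0.15).

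Slc2a1, the glucose transporter GLUT1, lay wholly above, at 390.1, 352.1 and 332.6 in Dox + sACVR2B against 241.3, 297.0, 223.4 and 250.9 in Dox (0.43, SE 0.11), whereas the 22 glycolysis genes as a group had a median of -0.03. Breakdown of branched-chain amino acids was represented above by Dbt, the core of the dehydrogenase complex (664.9, 794.2 and 708.8 against 579.9, 566.5, 464.3 and 493.7, a difference of 0.43, SE 0.12), and by Ppm1k, the phosphatase that activates the complex (0.30, SE 0.12). Both lay wholly above, though a second, dim probe of Dbt gave -0.03. Bcat2, the first enzyme of the pathway, had 0.36 (SE 0.14) with overlap. The list of amino acid genes had 15 of 22 members above 0 and a median of 0.10. Its lowest member was at -0.55. Unadjusted p was under 0.05 for 3 members on the higher side and 1 on the lower, against 3.02% and 2.8% of all genes.

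Mitochondrial genes were close to level. Of 46 oxidative phosphorylation subunits, 26 were above 0 and the median was 0.02. However, 6 lay wholly above and 0 wholly below, against 3.37% and 2.68% of all genes. These 6 differed little in size, up to 0.15 (SE 0.09) for Atp5d, a subunit of ATP synthase with 7752.3 to 8136.6 in Dox + sACVR2B against 7033.9 to 7338.3 in Dox. None had an unadjusted p under 0.05. Ndufb8, a complex I subunit, had 0.12 (SE 0.12), Atp5a1, of ATP synthase, -0.11 (SE 0.13), and Vdac1, the outer membrane channel, -0.08 (SE 0.10). Second, dimmer probes gave -0.03 for Ndufb8, -0.08 for Atp5a1 and 0.08 for Vdac1. The co-activators Ppargc1a and Ppargc1b, which drive mitochondrial biogenesis, had 0.04 (SE 0.20) and 0.05 (SE 0.20).

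Polyamine synthesis was among the lists with a median farthest below 0 (-0.33), with only 7 members measured and 5 of them below. Odc1, the first enzyme, had 5195.5, 3882.3 and 5513.6 in Dox + sACVR2B against 6040.2, 4874.5, 7863.5 and 7726.1 in Dox (-0.43, SE 0.18). Azin1, which protects that enzyme from decay, lay wholly below at signals of 66.6 or less (-0.52, SE 0.14). Contractile genes of fast fibres had a median of -0.02 and those of slow fibres -0.12. In the slow list Casq2, the slow and cardiac calcium-binding calsequestrin, had -0.70 (SE 0.41), with signals of 167.1, 257.5 and 620.1 in Dox + sACVR2B against 680.1, 224.0, 754.7 and 636.1 in Dox. Its difference was -0.34 without Dox + sACVR2B 1 and -1.16 without Dox + sACVR2B 3.

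**Figure D4:**
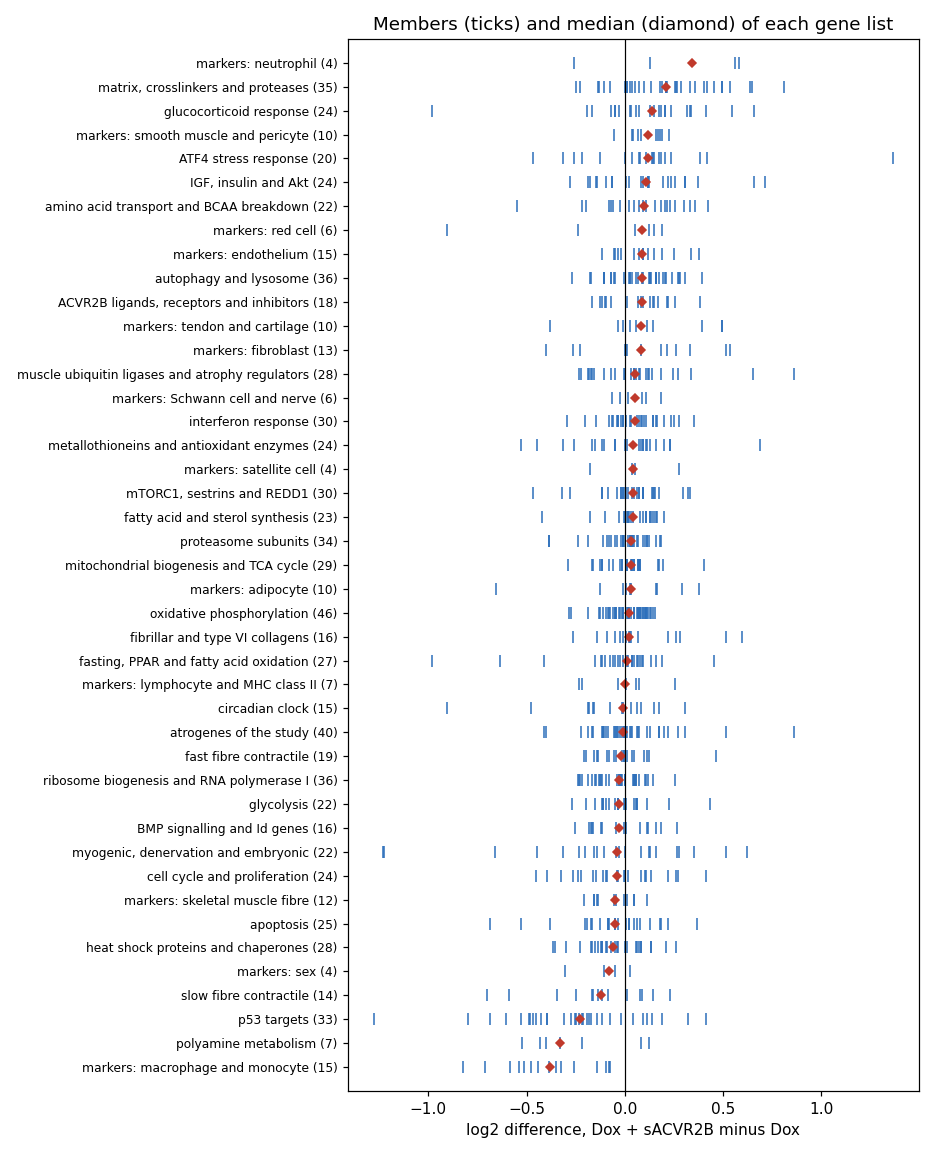
Log2 difference (Dox + sACVR2B minus Dox, horizontal axis) of each measured member (ticks) and the median (diamond) of 43 gene lists, with the number of measured members in brackets. Lists run from the highest median (neutrophil markers, 0.34) at the top to the lowest (macrophage and monocyte markers, -0.38) at the bottom. The median of all genes is 0.01.

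Targets of p53 other than Cdkn1a were mostly lower in Dox + sACVR2B, although both groups had been chosen to be high in Cdkn1a. Of 33 measured targets, 26 were below 0 and 7, Cdkn1a among them, above, with a median of -0.23. The median was -0.10 without Dox 4 and -0.38 without Dox 1, with 25 and 26 members below 0. With all 7 arrays, 4 of the 33 had an unadjusted p under 0.05 on the lower side and 1, Ccnd1, lay wholly below. Over all genes these shares were 2.8% and 2.68%. The spread lay within Dox. The median deviation of the list from its 7-array mean was -0.13, -0.13 and -0.14 on the Dox + sACVR2B arrays, against -0.21, 0.19, 0.40 and -0.02 on Dox 1, 3, 4 and 5. The Dox + sACVR2B arrays thus sat together within the Dox range.

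Gtse1, a p53-regulated gene of cell division, showed this most, with 305.5, 233.6 and 213.0 in Dox + sACVR2B against 159.5, 1027.0, 2284.3 and 465.2 in Dox (-1.28, SE 0.60). Fas, the death receptor, had 674.4, 759.7 and 637.2 against 601.4, 1390.6, 1767.0 and 707.2 (-0.53, SE 0.30). For both, Dox 1 was below every Dox + sACVR2B array while Dox 3 and 4 were well above. Mdm2, the ligase that degrades p53, had -0.18 (SE 0.19). Cdkn1a itself was 0.41 in the other direction, as a description. Without Dox 4 and Dox 5, a setting chosen after seeing the data, 23 of 33 targets were below 0 and the median was -0.09. On arrays under the threshold the list lay at -0.73 and -0.81 for Dox + sACVR2B and -0.65 for Dox 2, below every chosen array. Because Cdkn1a, a member of this list, split the arrays, the lower level there gives no separate support.

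Cyclin D1 (Ccnd1), which drives entry into the cell cycle, lay wholly below (221.1, 166.3 and 204.5 in Dox + sACVR2B against 341.5, 245.2, 309.0 and 259.4 in Dox, a difference of -0.45, SE 0.13). Pcna, the replication clamp, and Cdk2, a cell cycle kinase, had -0.39 (SE 0.17) and -0.33 (SE 0.14). Other, dimmer probes of Cdk2 gave -0.15 to 0.01. The 24 cell cycle genes together had 15 below 0 and a median of -0.04.

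Macrophage and monocyte markers were the list with the lowest median. All 15 measured markers were below 0, with a median of -0.38. Of these, 5 had an unadjusted p under 0.05 and 3 lay wholly below, against 2.8% and 2.68% of all genes. Lyz2, a lysozyme of myeloid cells, had 552.2, 382.8 and 345.3 in Dox + sACVR2B against 1119.8, 705.8, 645.0 and 715.6 in Dox (-0.82, SE 0.19). A second, dimmer probe of Lyz2 gave only -0.37. C1qc, a complement component, had 108.6, 77.4 and 131.9 against 227.1, 166.9, 145.8 and 150.1 (-0.51, SE 0.15), and Mrc1, a mannose receptor of resident macrophages, 191.3, 123.9 and 199.4 against 401.7, 258.9, 219.8 and 219.6 (-0.54, SE 0.19). These 3 separated the labels. Cd163, a haemoglobin scavenger receptor, had -0.71 (SE 0.23) and Csf1r, the receptor of macrophage growth factor, -0.33 (SE 0.15), with overlap. In whole muscle, fewer cells of a type and less RNA per cell cannot be told apart. Lyz1 and Lyz2 are near-identical genes, whose probes may share signal.

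The summed signal of the macrophage markers was 5988, 3705 and 5145 in Dox + sACVR2B, against 11260, 8743, 5564 and 5453 on Dox 1, 3, 4 and 5. Dox 1 and 3 were thus high, and Dox 4 and 5 within the Dox + sACVR2B range. Leaving out 1 array at a time left 13 to 15 of the 15 below 0, with medians of -0.50 to -0.21. Without Dox 4 and 5, a setting chosen after seeing the data, all 15 were below 0 and the median was -0.67. These were the lowest Dox arrays here, so leaving them out widens the difference by construction. The arrays under the threshold ran the other way, with 14 of 15 above 0, a median of 0.65, and sums of 8312 and 9332 in Dox + sACVR2B against 4645 on Dox 2. Cd14 and Aif1, which mark the same cells, were dim on the chosen arrays, at 13.4 to 27.6 and 22.0 to 40.4.

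Other immune markers were sparse. Neutrophil markers had 4 members above noise. S100a8 and S100a9, which form calprotectin, had 140.0, 122.1 and 73.8, and 254.1, 170.1 and 109.3, in Dox + sACVR2B. The Dox arrays had 58.6, 84.0, 47.8 and 40.8, and 104.9, 132.1, 82.3 and 83.6. Differences were 0.58 (SE 0.17) and 0.56 (SE 0.20), with overlap through Dox 3. Csf3r, the neutrophil growth factor receptor, lay wholly below (-0.26). Lymphocyte and MHC class II markers had a median of 0.00 over 7 members, and interferon response genes 0.05 over 30.

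Extracellular matrix genes were mostly higher. Of 35 matrix proteins, crosslinkers and proteases, 29 were above 0 with a median of 0.21. However, 0 lay wholly apart, against 3.37% of all genes above and 2.68% below. An unadjusted p under 0.05 was found for 1, on the higher side, against 3.02% of all genes. Thbs2, a matricellular thrombospondin, had 1157.4, 1437.9 and 628.1 in Dox + sACVR2B against 1010.9, 855.4, 503.0 and 359.5 in Dox (0.65, SE 0.33). Tnc, tenascin C, had 542.0, 466.7 and 244.2 against 293.4, 404.9, 209.3 and 119.4 (0.64, SE 0.31). Dox 4 and Dox 5 were the low arrays in both. Without both, a setting chosen after seeing the data, 16 of 35 genes were above 0 and the median was -0.02. Leaving out the lowest Dox arrays makes a positive difference smaller by construction. Without Dox 4 alone 25 of 35 were above 0 (median 0.14), and without Dox 5 alone 23 (median 0.10). On the arrays under the threshold, with 1 Dox array, 25 of 35 were above 0 (median 0.17). The 16 collagens had a median of 0.02, with 0.52 (SE 0.26) for Col1a1, the main fibrillar collagen. Fibroblast and tendon markers both had medians of 0.08.

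Bone genes were higher as well. Bglap2, an osteocalcin of bone-forming cells, had the largest difference of the 12 higher genes of smallest p, with 562.1, 585.5 and 297.8 in Dox + sACVR2B against 288.5, 193.0, 122.1 and 106.5 in Dox (1.24, SE 0.27). A list of bone and bone-resorbing cell genes was therefore written after these values were seen, and it supports no test. All 12 measured members were above 0, with a median of 0.61. Ibsp, bone sialoprotein, had 1504.7, 2044.7 and 611.1 against 913.8, 868.2, 328.0 and 197.8 (1.27, SE 0.49), Ctsk, the collagenase of osteoclasts, 0.90 (SE 0.31), and Mmp13, a collagenase of bone and cartilage, 0.87 (SE 0.31). The summed signal was 11600, 15160 and 7603 against 9147, 7608, 4462 and 3480. Dox 4 and 5 were again lowest. Without them, a setting chosen after seeing the data, 11 of 12 members were above 0 with a median of 0.35. The TA lies against the tibia, and the part of bone in the matrix result was not tested. Bglap and Bglap2 are near-identical copies.

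**Figure D5:**
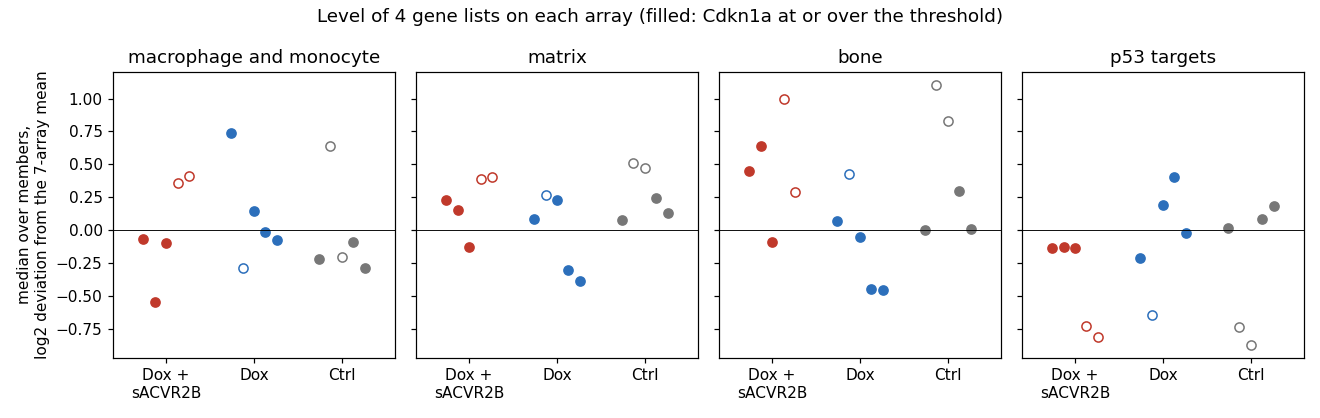
Level of 4 gene lists on each array, as the median over members of the log2 deviation from the gene's mean over the 7 chosen arrays (vertical axis), by label. Filled points are arrays with Cdkn1a at or over the threshold and open points those under it. Macrophage markers are highest on Dox 1, matrix and bone genes are lowest on Dox 4 and 5, and p53 targets of the 3 filled Dox + sACVR2B points (-0.13, -0.13 and -0.14) lie within the filled Dox points.

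Among the remaining genes of smallest p, Gpx3, a secreted glutathione peroxidase, had 4332.7, 5052.8 and 3645.2 in Dox + sACVR2B against 2846.2, 3397.0, 2485.1 and 2061.1 in Dox (0.69, SE 0.17). Inmt, a methyltransferase of small amines, had 1684.4, 2752.3 and 1859.7 against 1030.0, 1322.1, 653.8 and 1107.9 (1.00, SE 0.22). Both sets separated. Net1, an exchange factor for RhoA, had 0.57 (SE 0.13) and Tle1, a transcriptional co-repressor, 0.44 (SE 0.11). Wnt5b, a Wnt ligand, had 0.48 (SE 0.12). Prrx1 and Shox2, homeobox factors of limb mesenchyme, had 0.50 (SE 0.13) and 0.49 (SE 0.12). Ovgp1, a glycoprotein known from the oviduct (0.63, SE 0.12), and 2610035D17Rik (0.77, SE 0.18) completed the named higher genes. Other probes gave 0.45 for Net1, 0.08 to 0.26 for Tle1, 0.08 to 0.37 for Prrx1 and, near noise, -0.10 for Shox2. Wnt5b and Shox2 were dim, at 65.6 or less and 70.5 or less on the chosen arrays.

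On the lower side, Stau2, an RNA-binding protein, had 530.2, 505.3 and 555.3 in Dox + sACVR2B against 782.6, 681.3, 942.1 and 788.7 in Dox (-0.54, SE 0.12). E130308A19Rik had 234.0, 226.0 and 260.7 against 375.0, 370.3, 354.2 and 466.3 (-0.60, SE 0.12). Neither gene overlapped between the labels. Vmn1r65, a vomeronasal receptor, had -1.04 (SE 0.25). Zfp365 (-0.90, SE 0.20), Klhl23 (-0.42, SE 0.10) and Rdh13, a retinol dehydrogenase (-0.41, SE 0.10), were dim. Rdh13 lay at 29.7 or less on every chosen array. Other, dimmer probes gave -0.13 for Stau2, -0.41 to -0.20 for E130308A19Rik, and -0.47 and 0.03 for Zfp365.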

How the data were processed

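Intensity values, deposited by the authors on a linear scale, had been corrected for background and brought to 1 distribution over the 15 arrays by quantile normalization. A second deposited table has 30 value columns whose names match no sample label, and it was not used. Probes (45281) took genes from the platform annotation and symbols from RefSeq GRCm38.p6. Negative values gave a noise SD of 7.52. Probes above 12.4 in at least 5 arrays were kept (21307, covering 11458 genes). Per array 43.8% to 43.9% of probes were above noise. The precision of each mean is limited by 3 and 4 arrays per label.

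Log2(signal + 50) was fitted by limma 3.58.1 in R 4.3.3, with labels as the only term, the 7 arrays alone, two-sided tests and Benjamini-Hochberg adjustment over all kept probes. For each gene the probe with the highest mean signal was taken. Replicates are mice, each with 1 array. The procedure was also run on simulated data drawn independently for each probe, which lack the differences between arrays that many genes share. Named genes were the 12 of smallest p in each direction (none being called), the 2 of smallest p in each list, and genes named by the study. Others named, including bone genes, were chosen after their values were seen. The arrays, lists and tests were chosen with earlier results of these data known. Gene lists are described by counts and medians. Plots used matplotlib 3.10.9. Alternatives were other offsets, filters, normalization, priors, weights, covariates and arrays.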

Additional observations from a re-analysis of the deposited data

Results flagged for a closer look

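For 6 of 111 genes looked at, 1 of the 4 chosen Dox arrays lay far from the other 3 (Dixon's gap test on log2 levels), and chance flags about 1 in 20 groups. In 5 of the 6 that array was Dox 3. Tfrc, the transferrin receptor, was 10.62 on Dox 3 and 12.62 to 12.86 on the other Dox arrays. Fbxo32 was 12.15 on Dox 3 against 10.96 to 11.11, Tbc1d1 was 9.21 against 8.21 to 8.37, Casq2 was 8.10 against 9.42 to 9.65 and Itm2a was 10.30 against 10.67 to 10.70. The gene Fadd, an adaptor of death receptors, was 8.64 on Dox 4 against 8.12 to 8.17 on the others.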

How the results depend on the processing

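No alternative called a probe by limma, with or without the fold of 1.5. The smallest adjusted p ranged from 0.138 (without Dox 3, where 2074 probes had an unadjusted p under 0.05) to 1. Cdkn1a thresholds of 500 and 2000 chose the same 7 arrays. Probes whose arrays did not overlap numbered 728 higher and 545 lower. There were 1352 and 1168 with no noise filter, 105 and 77 with all 10 arrays of both labels, 1004 to 1790 and 819 to 1588 when 1 array was left out, and 1795 and 1682 without Dox 4 and Dox 5, a setting chosen after seeing the data. Fewer arrays overlap less by construction. Same-numbered arrays (numbers 1 and 3) had correlations of deviations of -0.12 and -0.19, against -0.13 to 0.20 for pairs of unlike number. Such few pairs cannot show whether arrays of the same number share anything else. The replicate block on these 4 arrays called 0 probes. Of 2415 values of 110 named genes, 2374 kept their direction and 41 turned round, all of differences that had not passed the test. With the replicate block these were Col16a1 (-0.05), Col1a1 (-0.08), Foxo1 (-0.15), Ppargc1b (-0.01), Trim63 (-0.04), Uty (0.04) and Vdac1 (0.03). With log2 Cdkn1a as a covariate they were Becn1 (-0.03), Casq2 (0.16), Ddit4 (-0.12), Foxo1 (-0.36), H2-D1 (-0.05), Mbp (-0.02), Tfrc (0.16), Trim63 (-0.02) and Ulk1 (-0.32). With all 10 arrays Ddit4 was 0, Foxo1 -0.08, Hbb-b2 0.02, Mbp -0.14 and Sox10 -0.06, and with the Cdkn1a class as a covariate there Lep was 0, Mbp -0.17, Ppargc1b -0.03 and Sox10 -0.07. Array weights gave -0.09 for Ppargc1a and -0.11 for Ppargc1b. Without Dox 4 and Dox 5, Atp5a1 was 0.01, Foxo1 -0.06, Hbb-b2 0.02, Ndufb5 0.05 and Vdac1 0.01. The median over probes gave -0.10 for Mbp. Leaving out 1 array gave ranges of -0.09 to 0.16 for Foxo1, -0.13 to 0.20 for Ppargc1a and -0.10 to 0.21 for Ppargc1b. The cause of these changes was not tested.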

Other observations

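Genes that respond within minutes to a stimulus were mostly lower in Dox + sACVR2B. The list was written after values were seen and supports no test. Of 14 measured immediate early genes, 11 were below 0 and the median was -0.20. Fos, a subunit of the AP-1 factor, had 838.8, 508.0 and 761.5 in Dox + sACVR2B against 2674.7, 1009.0, 1711.4 and 1043.4 in Dox (log2 difference -1.06, SE 0.30). Egr1, a zinc finger factor, had 2849.3, 1512.5 and 2979.3 against 4536.0, 2993.5, 5387.0 and 3260.8 (-0.73, SE 0.25). Both sets separated, whereas Jun, the partner of Fos, was higher in mean (0.50, SE 0.17). The median was -0.09 without Dox 1 and -0.12 without Dox + sACVR2B 2 (10 of 14 below 0 in each), and -0.33 without Dox 5 (12 of 14).

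The clock output gene Dbp had -0.90 (SE 0.32), with 1124.8, 2542.3 and 1641.7 in Dox + sACVR2B against 5159.6, 3963.3, 2329.5 and 2145.9 in Dox, and its relative Tef had -0.19 (SE 0.13). The 15 clock genes had a median of -0.01. Of the genes against oxidants and metals, Hmox1, which breaks down haem, had -0.53 (SE 0.18), and Slc30a1, a zinc exporter, lay wholly below (-0.45, SE 0.13), with a list median of 0.04 over 24. Chaperones had a median of -0.06 over 28, with -0.36 (SE 0.13) for Hspb8, a small heat shock protein, and 0.26 (SE 0.11) for Calr, of the endoplasmic reticulum, which lay wholly above. Apoptosis genes had a median of -0.05 over 25. Fadd lay wholly below (-0.38, SE 0.14) and Bmf, which promotes cell death, wholly above (0.37, SE 0.12).

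Endothelial markers had 10 of 15 above 0, and the angiopoietin receptor Tek lay wholly above (0.25, SE 0.11), with Tie1 at 0.34 (SE 0.12). Smooth muscle and pericyte markers had 9 of 10 above 0 and a median of 0.12, with 0.19 (SE 0.12) for Myh11 and 0.22 (SE 0.10) for Abcc9. Other, dimmer probes of Abcc9 gave -0.05 and 0.01. Among ribosome genes (median -0.03 over 36), Ubtf, which serves RNA polymerase I, lay wholly above (0.25, SE 0.09) and the subunit Polr1e wholly below (-0.23, SE 0.11).

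The other genes that led their lists overlapped between the labels, apart from Des (-0.16, wholly below). Tfrc had -0.90 and Itm2a -0.41. Cidea, Sln, Sulf2, Gpam and Thy1 had -0.66, -0.59, -0.48, -0.42 and -0.40. Differences were -0.39 for Psmd6 and for Psmc6, -0.32 for Deptor, -0.30 for Eif2s3y, -0.27 for Ndufb5 and for Pfkl, and -0.26 for Psat1. Hbb-b2, Cd8b1, Vcam1 and Uty had -0.24, -0.23, -0.17 and -0.10. On the upper side Sox10, Mbp and Smad6 had 0.11, 0.18 and 0.18, Ogdh and Elovl5 0.20 each, H2-D1 0.23, Iigp1 0.25, Prf1, Fbln2 and Cdh15 0.26, 0.26 and 0.27, and Lep 0.29. Cebpg, Gabarapl1 and Idh2 had 0.38, 0.39 and 0.40 (0.08 for Idh2 without Dox + sACVR2B 2), Mylk2 0.46, Comp 0.49, Fmod 0.50, Col16a1 0.60 and Mmp9 0.81.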
